A study of Mus musculus with 12 samples.

Results

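Natural killer (NK) cells and cytotoxic T cells kill by releasing granules, and 9 genes of that machinery and of NK cell identity were followed here in spleen dendritic cell (DC) preparations. They were granzyme A (Gzma), granzyme B (Gzmb), perforin (Prf1), cathepsin W (Ctsw) and Nkg7 among the granule genes, Ncr1, Klrb1b and Klrd1 among the receptors, and the transcription factor Eomes. The 9 genes were taken by name out of 17097 genes with a probe set of 1 gene symbol, and they had 15 such probe sets out of 28898. Their choice followed differences between mice lacking miR-142 (KO) and wild-type littermates (WT) that were already known from these same arrays, so the KO and WT values of the 9 genes are given with their errors as a description only. How many of them pass the threshold used for all genes is stated once, with the share of all genes, and supports nothing. The effect of lipopolysaccharide (LPS), which the choice did not use, was tested.

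The arrays formed 4 groups of 3, namely WT unstimulated, WT given LPS, miR-142 KO unstimulated and miR-142 KO given LPS. LPS is a bacterial cell wall component that activates DCs through Toll-like receptor signalling, and the sources used here give neither the amount nor the time. All 12 arrays came from male C57BL/6 mice of 10 weeks, littermates by the study's design text, with DCs selected positively from single spleens. The KO is labelled as a miR-142 knockout with no cell type or promoter named, so the deletion was not taken as limited to DCs. T cells are named in the sample descriptions and DCs everywhere else in the labels. DC genes gave clear signals, with unstimulated WT means of 10.01 for Cd74, 9.44 for H2-Aa and 7.22 for the CD11c gene Itgax on the log2 scale, where the median over all genes was 3.14. Markers of conventional DCs summed to log2 levels of 11.47 to 11.70 on 11 arrays and 10.99 on KO LPS array 2.

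Killing by NK cells needs perforin, which makes pores in the target membrane, and granzymes, serine proteases that enter through them and start cell death. NK cells are told apart from T cells by the absence of the CD3 complex and by receptors such as NKp46, encoded by Ncr1, and the C-type lectins of the NK gene complex. Eomes is a T-box transcription factor that, with T-bet, sets the maturation of NK cells and of memory CD8 T cells. In RNA from a cell preparation, fewer cells of a type and less RNA per cell cannot be told apart.

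The deleted gene makes a pair of mature microRNAs, whose sequences are shown because they define the genotype compared. Both are from RefSeq (GRCm38.p6, chromosome 11, plus strand), at chr11:87756867-87756887 for the 5p arm and chr11:87756903-87756925 for the 3p arm. Capitals mark the seed, bases 2 to 8, which pairs with target transcripts.
miR-142a-5p: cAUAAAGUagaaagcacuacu
miR-142a-3p: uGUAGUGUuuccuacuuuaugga
Mir142 itself had 0 probe sets carrying its symbol alone, so no array's genotype was checked on the deleted gene.

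Promoter sequences from RefSeq (GRCm38.p6) matched 7 of the 9 genes. The 250 bases before the annotated start are printed for 3 granule genes that were higher in KO and for Prf1, the granule gene that was not. Capitals mark matches, on either strand, to 2 short cores. These were GTGTGA, the core bound by T-box factors such as Eomes (TCACAC on the other strand), and TGTGGT, the core bound by RUNX factors (ACCACA on the other strand).
Gzma, chr13:113100982-113101231, minus strand: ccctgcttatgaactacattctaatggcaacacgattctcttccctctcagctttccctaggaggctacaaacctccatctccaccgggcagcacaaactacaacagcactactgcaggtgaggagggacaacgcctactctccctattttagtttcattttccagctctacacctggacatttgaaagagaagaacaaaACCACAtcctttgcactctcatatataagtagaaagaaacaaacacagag
Gzmb, chr14:56262335-56262584, minus strand: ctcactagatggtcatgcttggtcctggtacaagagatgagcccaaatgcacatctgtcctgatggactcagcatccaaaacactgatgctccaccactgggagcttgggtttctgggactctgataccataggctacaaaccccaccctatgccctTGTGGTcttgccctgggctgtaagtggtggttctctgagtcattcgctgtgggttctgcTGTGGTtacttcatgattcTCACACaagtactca
Nkg7, chr7:43436888-43437137, plus strand: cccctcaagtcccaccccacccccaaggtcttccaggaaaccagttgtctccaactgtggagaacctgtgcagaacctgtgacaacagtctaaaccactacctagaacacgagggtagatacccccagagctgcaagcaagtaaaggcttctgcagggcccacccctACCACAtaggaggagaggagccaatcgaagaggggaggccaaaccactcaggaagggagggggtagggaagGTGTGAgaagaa
Prf1, chr10:61297586-61297835, plus strand: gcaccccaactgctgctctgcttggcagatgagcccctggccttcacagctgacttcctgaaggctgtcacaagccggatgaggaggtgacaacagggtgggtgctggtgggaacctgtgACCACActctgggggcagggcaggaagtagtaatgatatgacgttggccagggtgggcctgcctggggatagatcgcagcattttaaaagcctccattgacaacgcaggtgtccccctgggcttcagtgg
The T-box core was present in 3 of the 7 promoters, those of Gzmb, Nkg7 and Ncr1, and in 12.3% of 32851 promoters of the same length. The RUNX core was present in 5 of 7, those of Gzma, Gzmb, Prf1, Nkg7 and Ncr1, and in 14% of all promoters. Prf1 carried the RUNX core in this window and not the T-box letters, and Gzma likewise. The cores were chosen after the sequences had been seen, the matches do not show binding, and the 2 cores do not overlap in the printed windows.

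Array medians were alike, from 2.65 to 2.72 in log2 signal. KO LPS array 2 stood apart. Its highest correlation with another array was 0.958, against 0.987 to 0.991 for the highest of each other array. Its control probe sets for the 3′ end of Gapdh exceeded those of the middle by 3.04, against 1.53 to 1.86 on the other arrays, which is a sign of RNA quality. The averaged genotype difference of each of the 9 genes, at its brightest probe set, is also given without this array.

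The granule proteases were far higher in KO than in WT in both stimulations. For Gzma, which encodes the tryptase-like granzyme A, the log2 signals were 6.87, 6.64 and 4.67 on the unstimulated WT arrays 1, 2 and 3 and 8.98, 9.31 and 9.25 on the unstimulated KO arrays. After LPS they were 6.94, 6.63 and 4.90 in WT and 8.97, 8.62 and 9.30 in KO. All 6 KO arrays lay above all 6 WT arrays, and WT array 3 was far below the other WT arrays in both stimulations. The difference averaged over both stimulations was 2.96 ± 0.39 (log2, SE, 6 arrays per genotype), or 7.80-fold. It was 2.62 without WT unstimulated array 3 and 2.65 without WT LPS array 3. Leaving out KO LPS array 2 gave 3.05. The SE and adjusted p of every averaged difference treat the 6 arrays of a genotype as independent. Same-numbered arrays of a genotype correlated at 0.230 to 0.440 with group means removed, so these SEs may be too small.

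Gzmb encodes granzyme B, which cleaves after aspartate and can activate caspases. Its log2 signals were 3.25, 3.35 and 2.27 in unstimulated WT, 5.03, 5.96 and 4.90 in unstimulated KO, 3.37, 3.15 and 3.10 in WT after LPS and 5.17, 5.81 and 4.99 in KO after LPS. The genotypes did not overlap, the lowest KO array standing at 4.90 and the highest WT array at 3.37. KO array 2 was the highest of its group in both stimulations. The averaged difference was 2.23 ± 0.23, or 4.68-fold, and 2.11 without KO LPS array 2. The unstimulated WT mean of 2.96 was below 3.14, the median over all genes, where a fold change is less certain.

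Ctsw encodes cathepsin W, a cysteine protease of NK and cytotoxic T cells. It measured 3.79, 3.75 and 3.33 in unstimulated WT, 5.04, 5.29 and 5.28 in unstimulated KO, 3.49, 3.97 and 3.17 in WT after LPS and 5.05, 4.52 and 5.60 in KO after LPS. Its genotypes did not overlap either, and KO LPS array 2 was the KO array nearest to WT. The averaged difference was 1.55 ± 0.18, or 2.92-fold, and 1.68 without KO LPS array 2.

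Nkg7 encodes a granule membrane protein needed for efficient degranulation. The signals were 4.32, 4.66 and 3.47 in unstimulated WT, 5.67, 6.53 and 6.17 in unstimulated KO, 4.46, 4.60 and 3.41 in WT after LPS and 5.40, 4.50 and 6.26 in KO after LPS. Here the groups overlapped after LPS, through KO LPS array 2, which at 4.50 lay under WT LPS array 2 and unstimulated WT array 2. The difference was 1.98 ± 0.44 unstimulated and 1.23 ± 0.44 after LPS, and the latter was 1.68 without KO LPS array 2. The averaged difference was 1.61 ± 0.31, and 1.83 without that array.

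Prf1 went against the other granule genes. Perforin is required for granzymes to reach the target cell, yet its signals were alike in both genotypes, at 4.28, 4.46 and 4.22 in unstimulated WT, 4.30, 4.39 and 4.35 in unstimulated KO, 4.43, 4.54 and 4.45 in WT after LPS and 4.22, 3.43 and 4.52 in KO after LPS. The genotypes overlapped throughout, and KO LPS array 2 was the one value far from the rest. The averaged difference was −0.20 ± 0.15 (95% interval −0.52 to 0.12), and −0.04 without KO LPS array 2. A second Prf1 probe set ran from 2.20 to 2.70 over the 12 arrays and differed by −0.13 ± 0.09 (interval −0.32 to 0.06). Both intervals leave out a rise of the size seen at the other 4 granule genes. The second probe set lay below 3.14, the median over all genes, on every array, where a fold change is less certain. Its interval therefore adds little on whether Prf1 RNA rose.

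**Figure D1:**
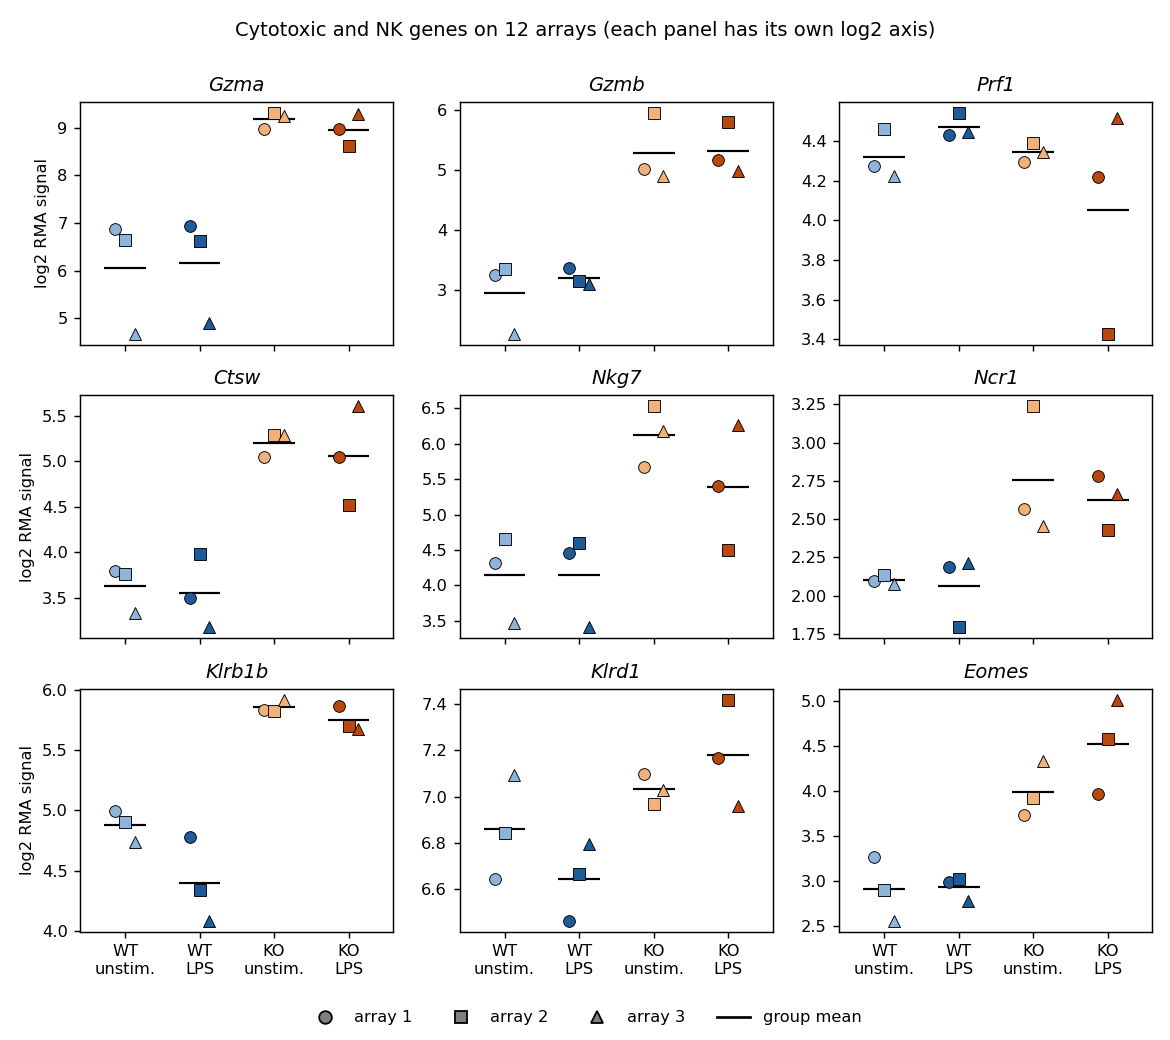
Log2 RMA signal of each of the 9 genes at its brightest probe set (vertical axis, a separate scale in each panel) on the 12 arrays by group (horizontal axis), with array numbers as symbols and group means as lines. Gzma, Gzmb, Ctsw, Ncr1, Klrb1b and Eomes have all 6 KO arrays above all 6 WT arrays, Prf1 and Klrd1 overlap, and Nkg7 overlaps through KO LPS array 2.

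The receptors were less uniform than the proteases. Ncr1 encodes NKp46, an activating receptor that is nearly specific to NK and related innate lymphoid cells. It measured 2.09, 2.13 and 2.08 in unstimulated WT, 2.57, 3.24 and 2.46 in unstimulated KO, 2.18, 1.79 and 2.21 in WT after LPS and 2.78, 2.43 and 2.66 in KO after LPS. Every KO array was above every WT array, but the separation between the lowest KO array (2.43) and the highest WT array (2.21) was small and all group means were below the median gene. The averaged difference was 0.61 ± 0.13, or 1.52-fold, and 0.66 without KO LPS array 2, which held the lowest KO value.

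Klrb1b encodes the inhibitory C-type lectin NKR-P1B. At its brightest probe set it measured 5.0, 4.91 and 4.73 in unstimulated WT, 5.83, 5.82 and 5.92 in unstimulated KO, 4.78, 4.34 and 4.08 in WT after LPS and 5.87, 5.70 and 5.68 in KO after LPS. Its KO arrays were tightly grouped, between 5.68 and 5.92, above a WT range of 4.08 to 5.0. The averaged difference was 1.16 ± 0.11, or 2.24-fold, and 1.18 without KO LPS array 2. The other 4 probe sets of Klrb1b differed in the same direction by 1.68 ± 0.22, 1.77 ± 0.20, 1.78 ± 0.23 and 1.52 ± 0.16. The Klrb1 genes are close in sequence, and probe sets with an s or x in their name, as the brightest Klrb1b set has, may bind related transcripts.

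Klrd1 encodes CD94, the partner chain of the NKG2 receptors, and it differed least of the 3 receptor genes. Its signals were 6.64, 6.84 and 7.09 in unstimulated WT, 7.10, 6.97 and 7.03 in unstimulated KO, 6.46, 6.67 and 6.80 in WT after LPS and 7.17, 7.42 and 6.96 in KO after LPS. Unstimulated arrays of the genotypes overlapped, and after LPS the KO arrays lay above the WT arrays. The difference was 0.17 ± 0.15 unstimulated, 0.54 ± 0.15 after LPS and 0.35 ± 0.10 averaged (1.28-fold). Without KO LPS array 2, the highest array, it was 0.42 after LPS and 0.30 averaged. WT array 3, the lowest WT array for most of the genes, was the highest WT array for Klrd1 in both stimulations.

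Eomes was measured at 2 probe sets that gave the same direction with different size. The brighter gave 3.26, 2.90 and 2.56 in unstimulated WT, 3.73, 3.92 and 4.33 in unstimulated KO, 2.99, 3.02 and 2.78 in WT after LPS and 3.96, 4.58 and 5.01 in KO after LPS. All KO arrays were above all WT arrays, by 1.34 ± 0.18 on average (2.53-fold; 1.32 without KO LPS array 2), and both WT means were below the median gene. The other probe set gave 2.57, 2.98 and 2.71 in unstimulated WT, 3.29, 3.72 and 3.74 in unstimulated KO, 3.13, 3.26 and 3.12 in WT after LPS and 3.27, 3.51 and 3.86 in KO after LPS, a difference of 0.60 ± 0.12.

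**Figure D2:**
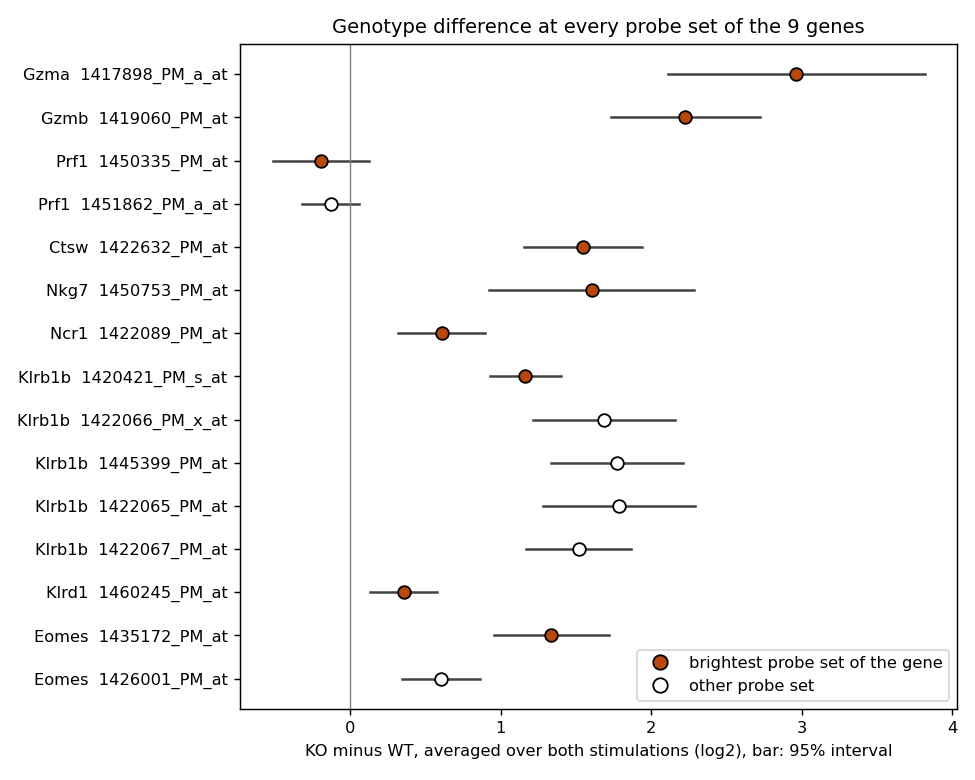
Difference KO minus WT averaged over both stimulations (log2, horizontal axis) at each of the 15 probe sets of the 9 genes, with 95% intervals from limma as bars and the brightest probe set of each gene filled. The 2 Prf1 probe sets, at −0.20 and −0.13, are the ones left of 0, and the 5 Klrb1b probe sets run from 1.16 to 1.78.

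Over the 9 genes, the averaged genotype difference ran from −0.20 to 2.96 with a median of 1.34, and the median over all genes was −0.02. The genes were chosen on this comparison, which fixed the outcome of the counts that follow, and nothing is read from them. At an adjusted p under 0.05 (limma, Benjamini-Hochberg over all genes) the 9 genes included 7 that were higher in KO in the averaged comparison, where 1.74% of all genes were higher and 0.877% lower. They included 4 unstimulated (Gzma, Gzmb, Ctsw and Klrb1b; 0.205% of all genes) and 4 after LPS (Gzmb, Ctsw, Klrb1b and Eomes; 0.275% of all genes). All 6 KO arrays were above all 6 WT arrays for 6 of the 9 and for 1.81% of all genes. With 3 arrays against 3, KO lay above WT for 7 of the 9 unstimulated (8.99% of all genes) and for 7 after LPS (6.92%). Leaving out 1 array moved the unstimulated count to between 0 and 5, with 0 when unstimulated WT array 3 or unstimulated KO array 1 or 2 was left out, 1 for unstimulated WT array 1 or 2, and 2 for WT LPS array 1 or unstimulated KO array 3. It moved the count after LPS to between 0 and 5, with 0 without WT LPS array 2 and 1 without WT LPS array 1 or 3.

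None of the 9 genes passed the threshold for LPS in either genotype. That is near the share of all genes called, so it is no result about these genes. In WT 0 of 9 genes passed, 1 of them at an unadjusted p under 0.05, against 0.117% of all genes called. In KO 0 of 9 passed and 0 at an unadjusted p under 0.05, against 0.392% of all genes. Among all 15 probe sets 0 passed in WT (2 unadjusted; background 0.128%) and 0 in KO (0 unadjusted; background 0.301%). The same counts of 0 over the 9 genes were given by limma with a trended, robust prior.

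For Klrb1b, the gene nearest to the threshold in WT, the signal was lower after LPS by 0.48 (interval −0.81 to −0.15), with an unadjusted limma p of 0.00826 and an adjusted p of 0.669. Its same-numbered WT arrays differed by −0.22, −0.57 and −0.65, so all 3 went the same way. In KO the value for Klrb1b was −0.11 ± 0.15. The 4 other Klrb1b probe sets gave −0.26, −0.37, −0.38 and 0.03 in WT, none past the threshold.

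For Eomes the KO arrays after LPS were higher by 0.52 ± 0.25 (interval −0.02 to 1.07, limma p 0.0571, adjusted p 0.546), and the same-numbered differences were 0.23, 0.66 and 0.68. At the other Eomes probe set the KO value was −0.04, and it was WT that differed, by 0.42 ± 0.17, with the 3 LPS arrays above the 3 unstimulated arrays and a limma p of 0.0282 (adjusted 0.926). The probe sets of this one gene therefore placed the larger LPS difference in different genotypes, and neither passed.

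Intervals for the granule genes were wide enough to hold sizeable LPS effects. The LPS difference of Gzma was 0.10 in WT (interval −1.11 to 1.31) and −0.22 in KO (−1.43 to 0.99). For Gzmb it was 0.25 in WT (−0.45 to 0.95) and 0.03 in KO (−0.67 to 0.73). The largest was that of Nkg7 in KO, −0.74 (−1.70 to 0.23), which was −0.29 without KO LPS array 2. The difference between the LPS effects of KO and WT was past the threshold for 0 of 9 genes and 0 of 15 probe sets. It was past the threshold for 0% of all genes and 0% of all probe sets too, so this is no result about the 9 genes. At an unadjusted limma p under 0.05 there were 0 of the 9, the smallest being 0.100 for Klrd1. The smallest adjusted p, 0.969, was shared by Prf1, Nkg7, Klrb1b, Klrd1 and Eomes. The arrays of both stimulations overlapped, in WT and in KO, for every one of the 9 genes at its brightest probe set, and no order of the stimulations within a genotype passed the test. Same-numbered arrays differed in 1 direction in all 3 pairs for Klrb1b, Klrd1 (−0.18, −0.18 and −0.30) and Prf1 (0.16, 0.08 and 0.22) in WT and for Eomes in KO, and with the array number as a replicate block 0 of 9 genes passed too.

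**Figure D3:**
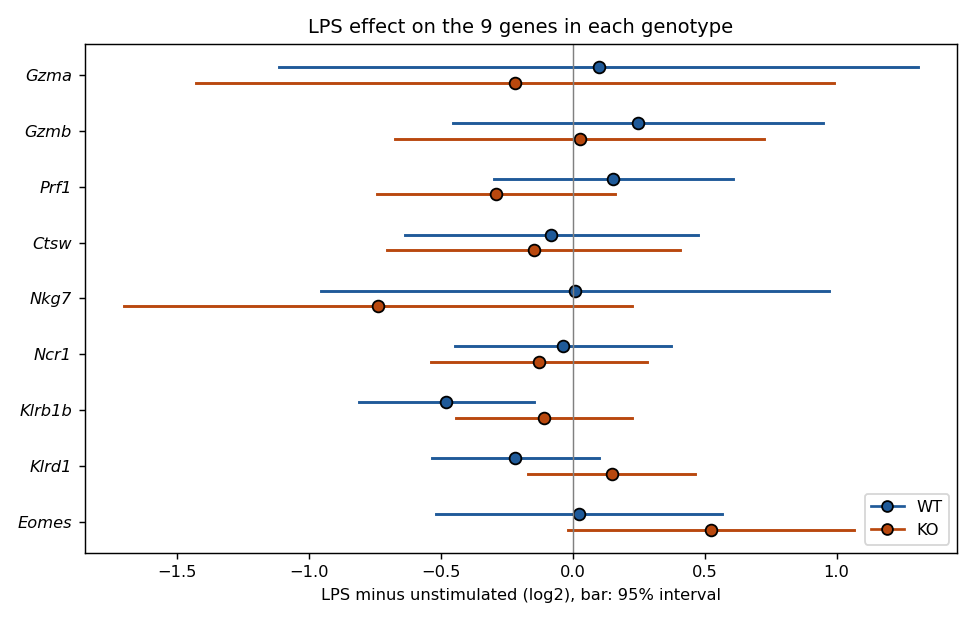
LPS minus unstimulated (log2, horizontal axis) for each of the 9 genes in WT and in KO, 3 arrays per group, with 95% intervals from limma as bars. All intervals include 0 except that of Klrb1b in WT (−0.81 to −0.15), which did not pass after adjustment over all genes.

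In WT most of the 9 genes had their lowest value on the same array number. In KO no array number held this place for most of them in both stimulations. Unstimulated WT array 3 was the lowest of its group for 8 of the 9 genes, the exception being Klrd1, and WT LPS array 3 was the lowest for 6. For 6 genes WT array 3 was lowest in both stimulations. Gzma varied most among unstimulated WT arrays, with a range of 2.20 log2 units, against 0.33 among unstimulated KO arrays. Among KO arrays no number was lowest for more than 1 gene in both stimulations.

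KO array 2 changed its place between stimulations. It was the highest unstimulated KO array for 6 genes and the lowest LPS array for 5. From unstimulated to LPS it differed by −2.03 for Nkg7, −0.97 for Prf1, −0.81 for Ncr1, −0.77 for Ctsw and −0.70 for Gzma, but by −0.15 for Gzmb, −0.12 for Klrb1b, 0.45 for Klrd1 and 0.66 for Eomes. The median over all genes in that pair was −0.02, and Nkg7 was at the 0.17th percentile. This is the array with the raised Gapdh 3′ signal, and the part of RNA quality in its values was not tested.

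**Figure D4:**
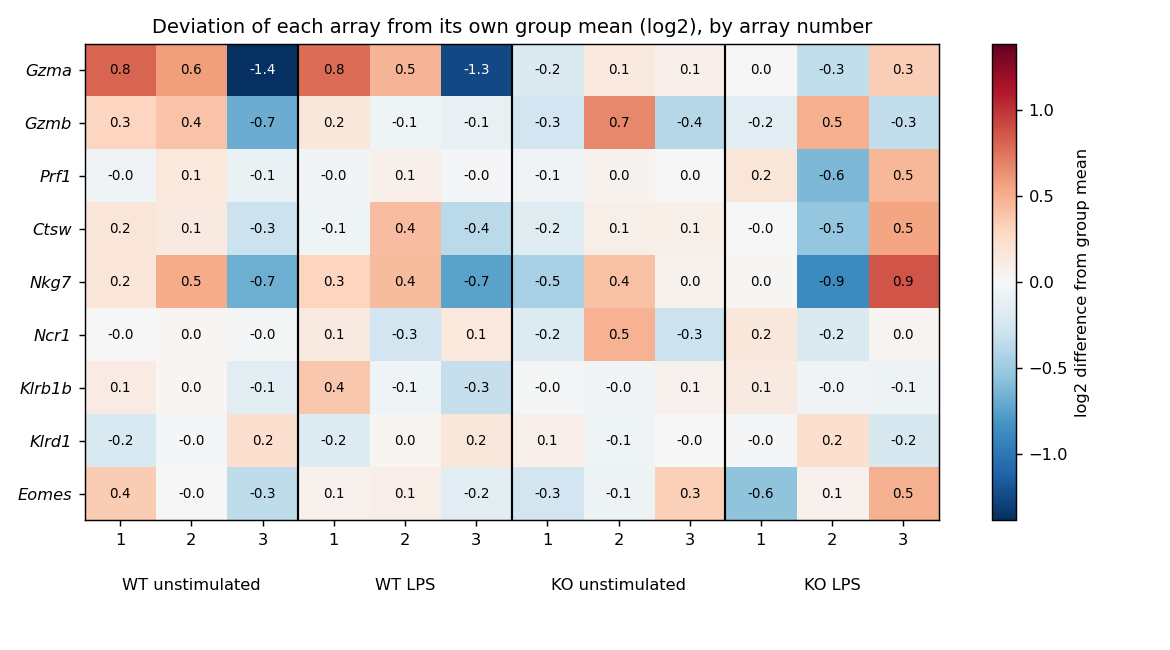
Deviation of each array from the mean of its own group (log2, colour and printed values), with the 9 genes as rows and the 12 arrays as columns. WT array 3 is low in both stimulations for Gzma (−1.4 and −1.3) and Nkg7, KO LPS array 2 is low for Nkg7 and Prf1, and no printed value of Klrd1 is over 0.2 in size.

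Few other genes of cytotoxic granules passed the threshold between genotypes, which does not show that the rest were alike. Over 6 lists of further cytotoxic and NK genes, written with earlier results of these data known, 68 of 79 genes were measured. In the averaged comparison 14 were higher and 0 lower in KO, where 1.74% of all genes were higher and 0.877% lower. In each stimulation taken alone 4 were higher, with 0.205% of all genes higher unstimulated and 0.275% after LPS. The median averaged difference of the 68 genes was 0.18. Of the 8 other granzymes 1 rose in KO, Gzmc, by 0.92 ± 0.19 (limma, adjusted p 0.0242), while Gzme (−0.15) and Gzmd (−0.12) did not pass and 7 of the 8 lay below the median gene in all groups. These granzymes are close in sequence, so signals may be shared among them. Of 13 genes of granule assembly and release 1 rose, Cst7, which encodes cystatin F, an inhibitor of granule cathepsins, by 0.88 ± 0.09 (adjusted p 0.000778). Lyst (0.69, adjusted p 0.140) and Stx11 (0.32, adjusted p 0.324), which serve granule biogenesis and fusion, did not pass.

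Among 5 death ligands and effector cytokines, Fasl, the ligand of the Fas death receptor, rose by 1.06 ± 0.18 (limma, adjusted p 0.0106). The chemokine Xcl1 (0.94 ± 0.25, adjusted p 0.0747) and Tnfsf10, which encodes TRAIL (0.65 ± 0.16, adjusted p 0.0546), missed the threshold.

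Of these 6 lists the NK lectin receptors had most calls, 8 of 11 higher in KO (1.74% of all genes) with a median of 0.95. This count depends on which genes were listed, and earlier results of these data were known when the list was written. Of 8 Ly49 (Klra) genes measured, it held only Klra7, Klra8 and Klra9. Klra8, which encodes the activating receptor Ly49H, rose by 3.75 ± 0.26 (limma, adjusted p 3.22e-05), from group means of 2.89 and 3.05 in WT to 6.57 and 6.87 in KO. Klra9 rose by 2.90 ± 0.18 (adjusted p 2.13e-05) and Klra7 by 1.46 ± 0.29 (adjusted p 0.0210). The Ly49 genes are close in sequence and may share signal. Of the 3 measured genes for NKG2 partners of the Klrd1 product, Klrc3 rose by 0.38 ± 0.08 (adjusted p 0.0242), and Klrc1 (0.83 ± 0.27, adjusted p 0.141) and Klrc2 (0.28 ± 0.11, adjusted p 0.216) did not pass.

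Of 20 other NK receptors and adaptors 3 rose in KO, where 1.74% of all genes were higher. Il2rb, the shared receptor chain for IL-2 and IL-15, rose by 1.71 ± 0.25 (limma, adjusted p 0.00373), Fcgr3, a low-affinity IgG receptor that myeloid cells also carry, by 1.08 ± 0.26 (adjusted p 0.0477), and Il18r1, an IL-18 receptor chain, by 0.71 ± 0.14 (adjusted p 0.0203). Il18rap (0.87 ± 0.24, adjusted p 0.0816) and Cd160 (0.63 ± 0.23, adjusted p 0.190) did not pass. None of 11 NK transcription factors passed in limma, the largest differences being those of Prdm1 (−0.35, adjusted p 0.0871) and Ikzf2 (0.33, adjusted p 0.0752). Tbx21, which encodes T-bet and was singled out after its value was seen, differed by 0.25 ± 0.09 (adjusted p 0.209). In the LPS comparisons 0 of the 68 genes passed in WT (0.117% of all genes), in KO (0.392%) or in the difference (0%), a share near that of all genes and no result about these lists.

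Marker genes of other cells were measured beside the 9 genes, in lists also written with earlier results known. T cell markers, which would accompany cytotoxic T cells, had 0 of 12 genes past the threshold in the averaged comparison, which at 1.74% of all genes higher and 0.877% lower is no result about them. Their median was −0.08, and their summed log2 level overlapped in all groups, from 6.94 to 7.41 over the 12 arrays. Group means of the CD3 chain gene Cd3e were 3.73 in unstimulated WT and 3.90 in unstimulated KO. Thy1, which NK cells also carry, differed by 0.97 ± 0.26 (limma, adjusted p 0.0746) and Cd28 by −0.39 ± 0.18 (adjusted p 0.290). A list for NKT and gamma-delta T cells had 0 of 5 genes past the threshold, and its members with the largest differences, Cd1d1 (−0.62) and Blk (−0.25), are also carried by antigen-presenting cells and B cells, so this list does not mark those T cells in a DC preparation. Of 12 conventional DC markers 2 fell in KO, Cd209a by 1.07 and Xcr1 by 0.54 on the log2 scale (adjusted p 0.0418 and 0.0219), and none rose. Among 9 B cell and plasma cell markers Jchain, the joining chain of plasma cells, fell by 3.54 (adjusted p 0.000178) and the B cell gene Ms4a1 rose by 0.87 (adjusted p 0.0100), with summed levels of 8.92 to 9.41 in WT and 7.98 to 9.08 in KO. Of 6 plasmacytoid DC markers Cox6a2 rose by 0.36 (adjusted p 0.0321), and the sums were 6.95 to 7.14 in WT and 7.08 to 7.29 in KO.

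Neutrophil markers moved with the genotype too. Of 12, 10 rose in KO (limma, adjusted p under 0.05; 1.74% of all genes) with a list median of 2.93, led by Lcn2 (5.19 ± 0.58), Ngp (5.0 ± 0.53) and Camp (4.99 ± 0.53). Their summed log2 level was 9.77 to 9.98 on WT arrays 1 and 2 and 7.85 and 7.72 on WT array 3, so array 3 was low for neutrophil markers as for Gzma. In KO it was 12.65 to 12.89 on arrays 1 and 2 and 11.20 and 11.12 on array 3, whereas Gzma on KO array 3 was 9.25 and 9.30, among the highest KO values. Gzmb was the lowest of its group on array 3 in WT (2.27 unstimulated and 3.10 after LPS) and in KO (4.90 and 4.99). Macrophage markers were also lowest on WT array 3 in each stimulation, with summed log2 levels of 10.05 and 9.94 against 10.55 to 11.08 on WT arrays 1 and 2, and were not lowest on KO array 3 (10.73 and 10.66), as for Gzma. Of 12 macrophage markers 0 passed between genotypes in the averaged comparison, with a median of 0.00. Of 10 mast cell and basophil markers Hdc rose by 2.18 ± 0.45 (adjusted p 0.0246) and Kit fell by 0.66. None of the other markers of this list passed. Their summed level was 7.03 to 7.25 in WT, 8.01 to 8.20 on KO arrays 1 and 2 and 7.05 to 7.09 on KO array 3. Hdc had the highest KO group means of the list (6.86 unstimulated and 6.89 after LPS) and weighs most in this sum. The sum is therefore no measure of mast cells or basophils. Gzma, Prf1, Ctsw, Nkg7 and Eomes were lowest of their group on KO array 3 in neither stimulation. Gzmb was lowest there in both, Ncr1 when unstimulated, and Klrb1b and Klrd1 after LPS. The part of these other cells in the differences was not tested.

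**Figure D5:**
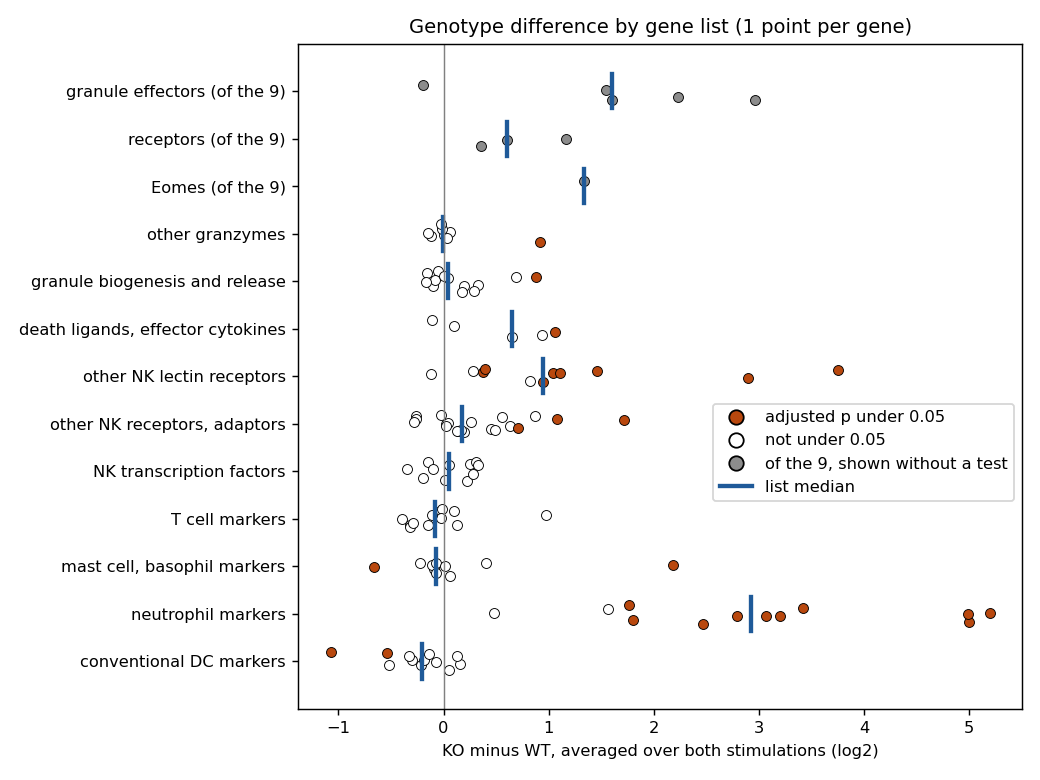
Difference KO minus WT averaged over both stimulations (log2, horizontal axis) for every measured gene of 13 lists (rows), 1 point per gene, filled where the limma adjusted p is under 0.05 and grey for the 9 genes, whose values carry no test here. Bars mark list medians, which are 2.93 for neutrophil markers, 0.95 for other NK lectin receptors and −0.08 for T cell markers.

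The 9 genes were also set beside all other genes by how closely their patterns matched over the 12 arrays. The measure was the root mean square of the difference after each gene was centred on its own mean. It includes the genotype difference on which the 9 genes were chosen, so a near gene can be one with a similar genotype difference. For Gzma (2.96) the averaged differences of Klra9 and S100a9 were 2.90 and 2.46. Nearness is therefore a description and no result apart from that choice. The nearest gene to Gzma was Klra9, at 0.50 log2 units where the deviation of Gzma itself was 1.63, followed by the neutrophil gene S100a9 at 0.55 and Klra8 at 0.57. For Klrb1b the nearest was its family member Klrb1f, at 0.25 against 0.63 for Klrb1b itself, then H2bc4 and Tgfbr1, both at 0.26. Ctsw and Nkg7 had the same nearest gene, Gfi1, at 0.31 and 0.51, and among the 9 genes each other at 0.36.

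Gzmb was nearest to Ms4a6d (0.38), Arap3 (0.43) and Cemip2 (0.44) against 1.18 for itself, and Eomes to Lztfl1 (0.31), Dmxl1 (0.35) and Apol7b (0.35) against 0.75. Ctsw was followed by Nrarp (0.34) and Scd1 (0.37), and Nkg7 by Il18bp (0.52) and Fcgr1 (0.54). Ncr1 was nearest to Kdelr2 (0.17), Styk1 (0.18) and Flot1 (0.18) against 0.37 for itself. Klrd1 was nearest to Cysltr1 (0.12), Ddx58 (0.13) and Rbm34 (0.13), and Prf1 to Polr1d (0.08), Ezr (0.09) and Atp13a3 (0.10), none of them cytotoxic granule genes.

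Of the measured genes next to the 9 on the chromosome, by the order of RefSeq genes, only Gzmc and Klrb1c passed. Both were higher in KO, as were 1.74% of all genes. Gzmk, next to Gzma, differed by −0.02 ± 0.13 between genotypes against 2.96 for Gzma. Gzmc, next to Gzmb, differed by 0.92 ± 0.19 and Klrb1c, next to Klrb1b, by 0.40 ± 0.08 (limma, adjusted p 0.0207). Klrk1, next to Klrd1, differed by −0.12 ± 0.21. The measured neighbours of Ctsw (Fibp, −0.24), Eomes (Golga4, 0.15) and Nkg7 (Cldnd2, −0.06) did not pass. Nor did those of Prf1 (Pald1, 0.35) and Ncr1 (Gp6, 0.04), or the second neighbours of Gzma (Gpx8, 0.04), Gzmb (Atp12a, 0.08) and Klrb1b (BC035044, −0.20).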

How the data were processed

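DCs selected from single spleens gave RNA that was amplified with the WT-Ovation Pico system, labelled with biotin and hybridised, per the labels' protocols. The deposited values are log2 signals that the authors normalised with RMA, per the submitters' processing notes, with the version not given in the sources used here. Nothing in the values tells how many cells or how much RNA an array received, and 3 arrays per group limit the precision.

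Of 45141 probe sets, 28898 with 1 gene symbol were kept. Left out were 104 control probe sets, 551 with several symbols and 15588 that carried none, and 28689 matched a RefSeq gene. The probe set with the highest mean stood for each of 17097 genes. No filter on dim genes was used.

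One model of 4 group means was fitted over all genes with limma 3.58.1 in R 4.3.3 (lmFit, eBayes), with 6 contrasts and Benjamini-Hochberg adjustment within each. Errors after ± are moderated SEs of log2 differences, and intervals are 95% intervals. Both treat all arrays as independent. P-values set a difference of group means against the moderated spread of arrays within groups, and treat the arrays as independent too. The fit was also run on simulated data with independent noise on each array, which does not cover correlated same-numbered arrays.

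The 9 genes, the lists and the questions were chosen with earlier results of these data known. All 9 genes were named, and from each other list up to 3 called genes with the largest change and up to 2 that did not pass. Likeness named 3 genes per gene, predicted gene models left out.

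The labels give each array its own mouse name. With group means removed, the unstimulated and LPS arrays that share a number had correlations of 0.385, 0.230 and 0.422 among WT mice and of 0.305, 0.284 and 0.440 among KO mice, so they were treated as pairs in alternative fits. This pairing comes from the data and not from the labels. Other alternatives were the mean of all probe sets of a gene, all probe sets tested, a filter on dim genes, renewed quantile normalisation, a trended robust prior, array weights, only the groups compared, and each array left out in turn.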

Additional observations from a re-analysis of the deposited data

How the results depend on the processing

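The 9 genes were chosen on the genotype comparison in these arrays, so how often they are called there describes the settings and shows no stability. Averaged, 7 of the 9 genes were called and 5 to 8 under the alternatives run, with Gzma, Gzmb, Ctsw, Klrb1b and Eomes called in each. Ncr1 was called in 10 of 19 alternatives, Nkg7 in 17 of 20 and Klrd1 in 1 of 20 (without KO LPS array 3). After LPS, 4 genes were called, 0 when only the arrays of the groups compared were fitted, and 0 to 5 when 1 array was left out. Unstimulated, 4 were called and 0 to 5 when 1 array was left out. No difference of a called gene changed direction. With the mouse number within genotype as a fixed replicate block, 0 of 9 genes were called in WT, 0 in KO and 0 in the difference of LPS effects, and 0 in each of these under the other alternatives. That block cannot be fitted to genotype differences. The random replicate block (consensus correlation 0.174) called 6 averaged, 4 unstimulated and 5 after LPS. Over all genes that block called 284 in the averaged comparison, against 448 in the main fit. Over all genes, called counts moved from 448 to between 186 and 878 in the averaged comparison, from 43 to between 5 and 170 unstimulated, from 76 to between 0 and 358 after LPS, from 20 to between 4 and 75 for LPS in WT and from 67 to between 13 and 148 for LPS in KO. The causes of these moves were not tested. Signals near or below the median gene (3.14), as for Ncr1, Gzmb and Eomes in WT, limit what fold changes can show.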
